A study of Rattus norvegicus with 12 samples.

Results

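The 6 arrays described here, of 12 in the series, measured renal cortex RNA from the rats that were bled under CO2-O2 anaesthesia, and the members were chosen by that label alone. All 6 animals were male Sprague-Dawley (Crl:CD(SD)) rats bought at 5 weeks of age. The 3 treated rats received bromodichloromethane (BDCM) at 200 mg/kg/day for 4 weeks, and the 3 controls received the corn oil vehicle for the same 4 weeks. Each animal was killed 24 h after the last dose, and its Cy3-labelled total RNA was hybridised to 1 one-colour Agilent array. The other 6 rats of the series received the same doses and were bled under isoflurane in a separate experiment. They enter below only as a second set of values and through the shared estimate of the spread.

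BDCM is a trihalomethane that forms when drinking water is chlorinated. It is bioactivated by cytochrome P450 enzymes, CYP2E1 among them, and by conjugation with glutathione through theta-class glutathione transferases, and in rats the kidney and the liver are its main targets of toxicity. Most of the renal cortex is proximal tubule, whose cells reabsorb filtered solutes, secrete organic ions, make glucose and ammonia, burn fatty acids and process glutathione conjugates. A tubule cell short of amino acids or loaded with unfolded protein slows its translation and raises a set of genes through the transcription factor ATF4, and a cell exposed to electrophiles raises detoxifying genes through NRF2.

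A level below is the log2 of a probe's processed signal minus the log2 of that array's 75th percentile, so that 0 is the 75th percentile of the array. An effect is the mean level of the 3 BDCM animals minus the mean of the 3 oil animals, in log2 units with its standard error (SE), and the adjusted p is that of limma with Benjamini-Hochberg adjustment over 34217 features, 12207 of them named genes. A gene rose or fell where its adjusted p was under 0.05.

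The 6 arrays were alike in brightness. Their 75th percentile lay between 1079.5 and 1187.3 intensity units, and 67.8 to 72.5% of probes were well above background. The slides were not balanced, since slide 1 held the 3 oil arrays and BDCM 2, and slide 2 held BDCM 1 and BDCM 3. The 2 slides were scanned on different days, so slide and scan day cannot be told apart. A fit with slide as a block therefore rests on BDCM 2 alone, and where it ended a call its value is given as the slide-blocked adjusted p. The first principal component took 53.9% of the variance and separated all 3 BDCM arrays from all 3 oil arrays. The second took 14.1% and placed BDCM 2 at 44.6 against -34.6 for BDCM 1 and -23.1 for BDCM 3. These 3 arrays split in the same way by slide and scan day. Defining markers of cortex were bright on every array, with 6 of 6 proximal tubule markers and 5 of 5 measured markers of the thick limb and distal nephron well above background. Of the 3 adrenal markers 2 were above background on no array. The third, Cyp11a1, was above it on all 6, at -4.85, -5.33 and -4.10 in oil and -5.59, -2.27 and -4.51 in BDCM. Of the hepatocyte markers 5 of 6 were above background on all 6 arrays. Their summed signals were 3.60, 6.26 and 1.17 times the 75th percentile in oil and 3.32, 4.89 and 5.61 in BDCM.

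BDCM changed 19.6% of the named genes tested (2388 of 12207), of which 1160 rose (9.5%) and 1228 fell (10.1%). Over all features the share was 19.9% (6810 of 34217), and the median effect over named genes was -0.02. Of the named genes, 258 rose at least 2-fold (2.11%), 233 fell at least 2-fold (1.91%), and 0.844% changed at least 4-fold in either direction. With slide as a block 3167 features passed, of which 64.0% were higher. The typical gene varied little among animals, with a median SD of 0.10 among oil and 0.15 among BDCM arrays, and the labels give 3 animals, with 1 array each, in every group.

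**Figure D1:**
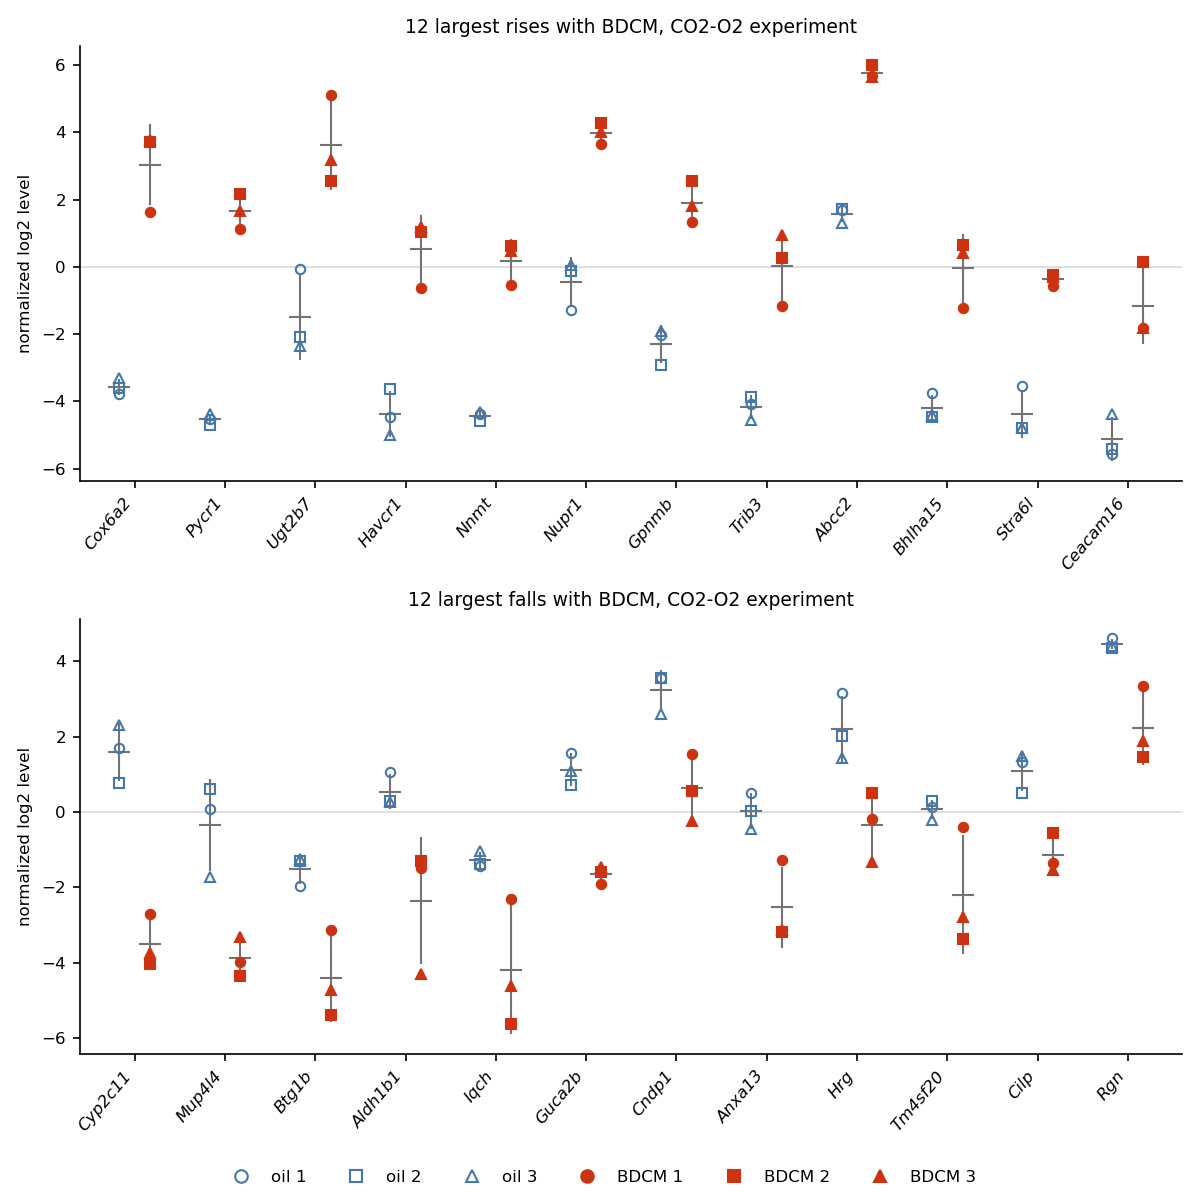
Normalized log2 levels of the 12 named genes with the largest rises (top) and the 12 with the largest falls (bottom) among genes well above background on all 6 arrays; blue open symbols are oil animals, red filled symbols are BDCM animals, and the grey bars show mean and SD (n = 3). No gene shown has overlapping groups, by the rule that chose them; Cox6a2 moves from below -3 to above 1, and BDCM 1 is the treated animal nearest to the oil animals for most genes.

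The leading rises included genes of the integrated stress response and of amino acid supply. Pycr1, the mitochondrial enzyme of the last step of proline synthesis, was at -4.52, -4.69 and -4.39 in oil 1, 2 and 3 and at 1.12, 2.17 and 1.66 in BDCM 1, 2 and 3. Every treated animal lay more than 5 log2 units above every control, and the effect was 6.18 ± 0.28 (adjusted p = 7.81e-06), a 72.5-fold rise (95% interval 47.0 to 112). The 3 probes of Pycr1 gave rises from 1.49 to 6.18, so the size depended on the probe. Asns, which makes asparagine, read -0.86, -0.89 and -0.84 in oil and 2.97, 3.16 and 2.93 in BDCM, an effect of 3.88 ± 0.20 (adjusted p = 1.3e-05) with almost no spread inside either group. Atf5, a transcription factor of the same response, read -0.06, -0.15 and -0.03 in oil against 3.41, 3.55 and 3.25 in BDCM (3.48 ± 0.16, adjusted p = 7.81e-06). Nupr1, a small stress-induced nuclear protein, stood at -1.29, -0.11 and 0.06 in oil and at 3.66, 4.29 and 4.01 in BDCM, a 21.6-fold rise (adjusted p = 0.000166). Fgf21, a secreted stress hormone, was low in oil at -5.30, -5.54 and -5.31 and reached -1.17, -1.66 and -1.77 in BDCM (3.85 ± 0.52, adjusted p = 0.000724). Trib3, a pseudokinase that feeds back on this pathway, was at -4.08, -3.87 and -4.54 in oil and at -1.17, 0.28 and 0.96 in BDCM (4.19 ± 0.66, adjusted p = 0.00203, slide-blocked adjusted p = 0.0524). BDCM 1 was the lowest treated animal for Trib3, Nupr1 and Pycr1 and the highest for Fgf21.

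Promoters of 5 rising genes are shown, those of Pycr1, Nupr1, Trib3 and Fgf21 and that of Cox6a2, which is described below. They were picked because they hold the 8-base core TGATGNAA, the form of element bound by ATF4 with C/EBP proteins. Asns was not among the genes of its list found to hold it. The sequences are the 250 bases before the start in the RefSeq promoter table on build GRCr8, given 5′ to 3′ on the gene's strand, all from the minus strand, with the core in capitals as it reads there; TTNCATCA is the core on the opposite strand.
Pycr1 (chr10:106420813-106421062): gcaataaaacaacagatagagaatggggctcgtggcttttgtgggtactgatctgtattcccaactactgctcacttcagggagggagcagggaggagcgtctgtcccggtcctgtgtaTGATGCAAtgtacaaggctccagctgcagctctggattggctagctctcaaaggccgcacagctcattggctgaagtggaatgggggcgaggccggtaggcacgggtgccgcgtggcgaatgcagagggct
Cox6a2 (chr1:192219717-192219966): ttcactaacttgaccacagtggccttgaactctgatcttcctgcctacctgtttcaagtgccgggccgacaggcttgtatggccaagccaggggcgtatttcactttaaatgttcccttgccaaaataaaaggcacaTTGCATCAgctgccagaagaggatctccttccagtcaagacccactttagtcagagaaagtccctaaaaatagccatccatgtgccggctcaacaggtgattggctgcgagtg
Nupr1 (chr1:190645902-190646151): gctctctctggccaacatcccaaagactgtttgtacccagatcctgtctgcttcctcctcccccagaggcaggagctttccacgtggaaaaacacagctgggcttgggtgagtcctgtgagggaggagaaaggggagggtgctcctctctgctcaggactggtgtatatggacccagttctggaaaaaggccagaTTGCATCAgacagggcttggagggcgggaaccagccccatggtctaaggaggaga
Trib3 (chr3:161275534-161275783): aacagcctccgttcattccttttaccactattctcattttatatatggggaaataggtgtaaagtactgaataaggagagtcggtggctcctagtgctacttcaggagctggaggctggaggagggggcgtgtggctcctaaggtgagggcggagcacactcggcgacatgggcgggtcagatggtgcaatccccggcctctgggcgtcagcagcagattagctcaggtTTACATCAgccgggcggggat
Fgf21 (chr1:105221377-105221626): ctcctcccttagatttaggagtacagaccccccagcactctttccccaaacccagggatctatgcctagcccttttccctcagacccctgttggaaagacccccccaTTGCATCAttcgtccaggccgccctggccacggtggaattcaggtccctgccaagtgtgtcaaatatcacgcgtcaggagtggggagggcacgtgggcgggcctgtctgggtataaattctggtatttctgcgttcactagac

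The core lies 131 to 124 bases before the start of Pycr1, 113 to 106 before Cox6a2, 55 to 48 before Nupr1, 21 to 14 before Trib3 and 143 to 136 before Fgf21. Searched on both strands, it was present in 3.27% of all promoters in the table (899 of 27457) and in 2.25% of those of tested named genes (224 of 9955). Among genes that rose at least 2-fold it was in 6.0% (12 of 200), and among those that fell at least 2-fold in 1.61% (3 of 186). Of the 12 leading rises 11 had a promoter in the table, and 4 of these held the core. The motif was chosen with the responding genes known, and a match in this window is a description of letters, not a measured binding site.

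The wider list of integrated stress and endoplasmic reticulum (ER) stress genes had 37 of 40 members measured, of which 18 rose, 1 fell and 18 did not pass, with a median effect of 0.52 against -0.02 over all named genes. Derl3, which helps move misfolded proteins out of the ER, was at 0.63, 0.21 and -0.18 in oil and 2.80, 4.88 and 4.56 in BDCM (3.86 ± 0.75, adjusted p = 0.00643). The ER chaperone regulator Dnajc3 rose by 1.22 ± 0.18 (adjusted p = 0.00147), and the ER chaperone Hyou1 by 1.04 ± 0.20 (adjusted p = 0.00563, slide-blocked adjusted p = 0.0701). Atf3, a transcription factor downstream of ATF4, read -0.99, -0.57 and -0.64 in oil and 0.70, 2.62 and 2.42 in BDCM (2.65 ± 0.55, adjusted p = 0.00843). Genes often used as read-outs of this response did not all pass. Atf4 itself differed by 0.52 ± 0.22 (adjusted p = 0.126), the ER chaperone Hspa5 by 0.45 ± 0.20 (adjusted p = 0.152) and Ddit3, which encodes CHOP, by 1.09 ± 0.43 (adjusted p = 0.104). Ddit3 was at 3.11 in BDCM 1, inside the oil range of 2.69 to 3.30, and at 4.45 and 4.58 in the other two, and without BDCM 1 its adjusted p was 0.0175. Chac1, which degrades glutathione, differed by 0.10 on its brightest probe (adjusted p = 0.443) and by up to 4.66 on another, and the mean over its probes passed (adjusted p = 0.000305). Ddit4, a stress-induced inhibitor of mTORC1, was the 1 member that fell (-1.03 ± 0.25, adjusted p = 0.0194), with 0.0629 without oil 2, 0.0609 without oil 3, 0.0671 without BDCM 2 and 0.0502 with slide as a block. With slide as a block 8 members rose and 0 fell.

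Enzymes of amino acid synthesis did not move one way. Of 29 measured genes of asparagine, serine, proline and one-carbon synthesis 8 rose and 7 fell. Besides Pycr1 and Asns, the rises held Aldh18a1, which starts proline synthesis from glutamate (2.23 ± 0.27, adjusted p = 0.000413), and the mitochondrial folate enzyme Mthfd2 (2.38 ± 0.34, adjusted p = 0.001). Phgdh, the first enzyme of serine synthesis, was abundant and differed by -0.19 ± 0.10 (adjusted p = 0.192). The falls held Cbs, which starts cysteine synthesis from homocysteine (-0.68 ± 0.14, adjusted p = 0.00854), glutamine synthetase Glul (-0.91 ± 0.20, adjusted p = 0.0123) and the betaine-using methyltransferase Bhmt (-1.37 ± 0.28, adjusted p = 0.00817, slide-blocked adjusted p = 0.162). The fallen count moved with single animals, to 3 without oil 1, 4 without oil 2, 3 without BDCM 2 and 3 without BDCM 3. With slide as a block 5 rose and 2 fell.

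Amino acid transporters divided in a similar manner, with 6 of 29 measured members higher and 7 lower. Slc7a11, the cystine importer that feeds glutathione synthesis, stood at -5.31, -5.50 and -5.31 in oil and at -3.28, -0.88 and -1.16 in BDCM (3.60 ± 0.66, adjusted p = 0.00492). The glycine transporter Slc6a9 was at -3.48, -4.06 and -3.42 in oil and -0.71, -0.46 and -0.63 in BDCM (3.05 ± 0.32, adjusted p = 0.000207). Slc7a3, a cationic amino acid transporter, was not well above background on any oil array and was on all 3 BDCM arrays, so its rise is a bound of at least 6.76-fold (adjusted p = 0.00039). In these bounds the dim group is set at the lowest signal well above background on each of its arrays, or at its own signal where that is higher. A gene with such a bound entered the test through the group where it is high, a choice that favours a difference, so its adjusted p is given as the fit's value and supports nothing further. With no filter on dim probes the adjusted p was 0.000995 for Slc7a3, and over the 6 genes with a bounded rise named here it ran from 0.000375 for Hrk to 0.0267 for Fosl1. The apical neutral amino acid transporter Slc6a18 of the proximal tubule went the other way, from 4.92, 4.92 and 4.79 in oil to 4.29, 3.62 and 3.76 in BDCM (-0.99 ± 0.16, adjusted p = 0.00238). With slide as a block 4 members rose and 2 fell, and without oil 1 the counts were 4 and 4.

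Cytosolic ribosomal protein genes rose almost without exception. Of 75 measured cytosolic ribosomal protein genes, of 79 listed, 73 rose, 0 fell and 2 did not pass, and the median effect was 0.69 with a range of 0.21 to 1.12. The rise was small and even across animals, with list medians of 0.66, 0.75 and 0.66 above the oil mean in BDCM 1, 2 and 3. Rps19, of the small subunit, was at 5.89, 5.89 and 5.87 in oil and 6.91, 7.09 and 6.94 in BDCM, a 2.14-fold rise (adjusted p = 0.000148). Rpl12, of the large subunit, rose by 1.12 ± 0.11 (adjusted p = 0.000164), and the stalk protein Rplp0, among the brightest, by 0.58 ± 0.08 (adjusted p = 0.000962). The count was 64 with slide as a block and 69 under quantile normalization, where the median was 0.54. Many of these genes have processed pseudogenes and close copies, so a probe may also read transcripts of a copy.

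Ribosome biogenesis and nucleolar genes had 16 rises and 0 falls among 45 measured members, with a median of 0.22. Npm1, the abundant nucleolar protein nucleophosmin, read 4.82, 4.82 and 4.86 in oil and 5.77, 5.83 and 5.90 in BDCM (1.00 ± 0.13, adjusted p = 0.000731), and the box C/D ribonucleoprotein gene Nop56 rose by 0.57 ± 0.12 (adjusted p = 0.01). Of 33 measured aminoacyl-tRNA synthetases 13 rose and 0 fell, with a median of 0.29. Wars1, which charges tryptophan, was at 3.66, 3.66 and 3.70 in oil and 4.61, 5.35 and 5.16 in BDCM (1.37 ± 0.22, adjusted p = 0.0022), and Sars1, which charges serine, rose by 1.07 ± 0.20 (adjusted p = 0.00579, slide-blocked adjusted p = 0.0554). The core TGATGNAA was in 5 of 30 synthetase promoters (16.7%), against 2.25% for tested named genes. These were Aars1, Iars1, Mars1, Nars1 and Tars1, of which Tars1 did not pass (adjusted p = 0.227), and not Wars1 or Sars1. The share was 15.6% (5 of 32) in the integrated stress and ER stress list and 9.52% (2 of 21) in the amino acid synthesis list. In the cytosolic ribosomal protein list it was 3.33% (2 of 60). The synthetase count shrank without any 1 array, and the biogenesis count without any 1 array other than BDCM 1. Without BDCM 1 biogenesis rises numbered 17 and synthetase rises 10. Biogenesis rises numbered 5 without oil 1 and 6 without any 1 of oil 2, oil 3, BDCM 2 or BDCM 3, and 4 with slide as a block. Synthetase rises numbered 9 without oil 1, 4 without oil 2, 4 without oil 3, 5 without BDCM 2, 5 without BDCM 3 and 2 with slide as a block.

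**Figure D2:**
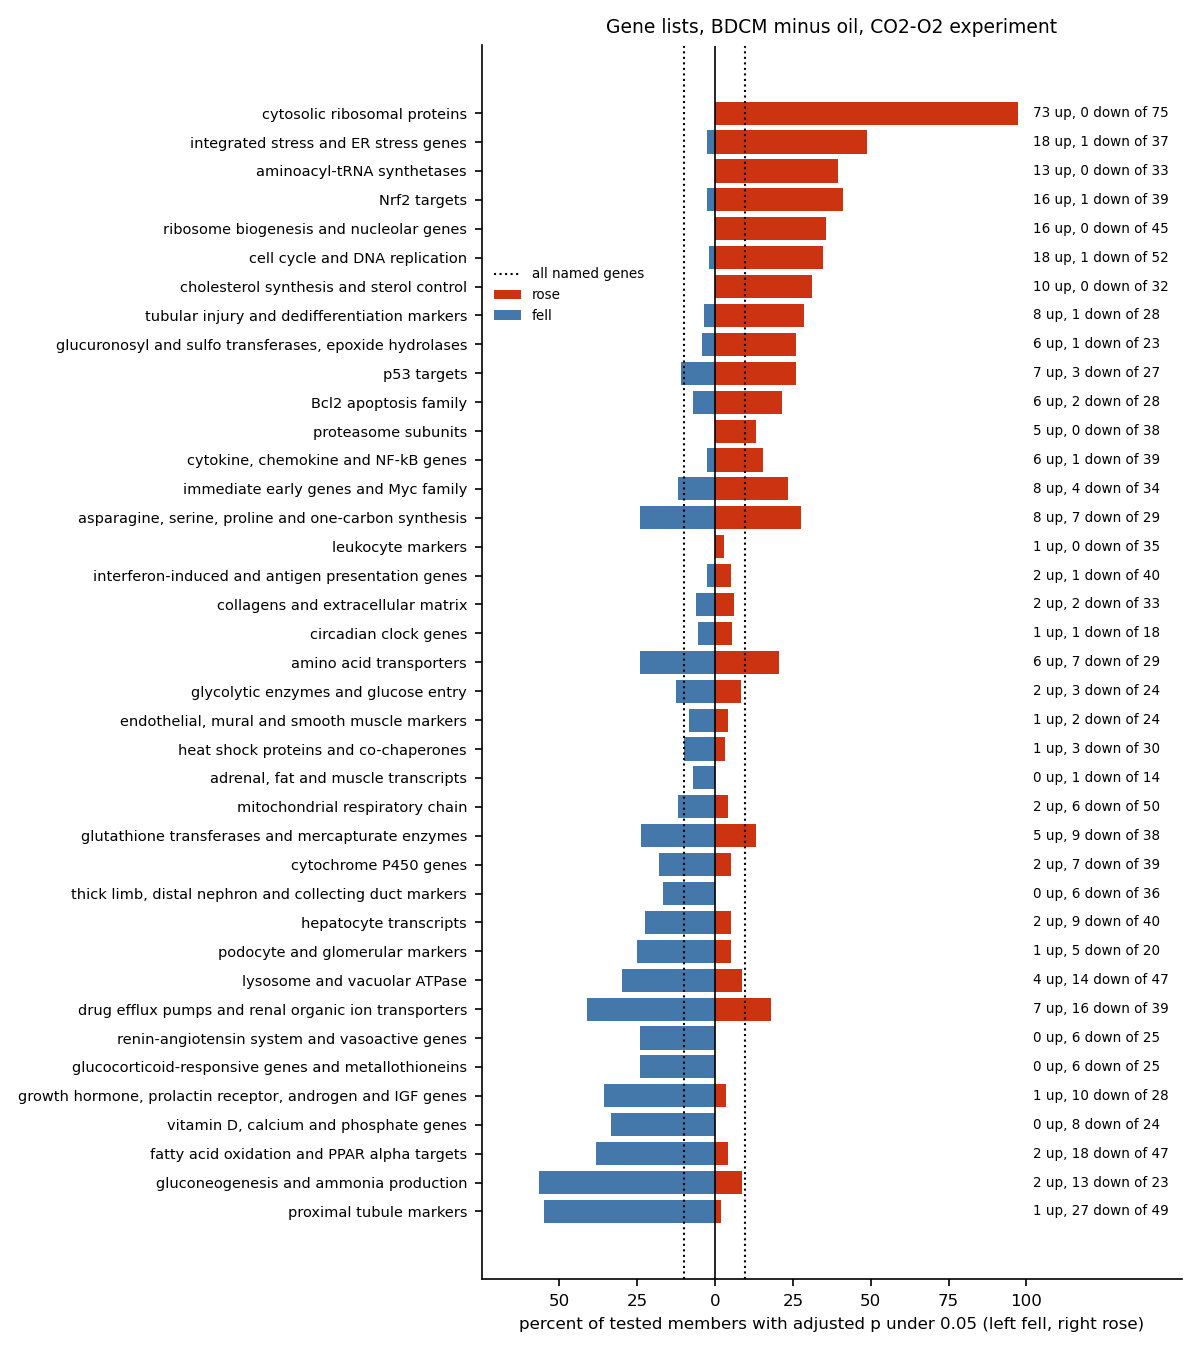
Percent of the measured members of each gene list that rose (red, right) or fell (blue, left) at an adjusted p under 0.05 in BDCM against oil, with the counts at the right; dotted lines mark the shares over all named genes, 9.5% higher and 10.1% lower. Ribosomal proteins lie at the top with 73 of 75 higher, and proximal tubule markers at the bottom with 27 of 49 lower.

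Of 39 measured NRF2 targets 16 rose and 1 fell, with a median of 0.26, and 9 rose and 2 fell with slide as a block. Gene lists here share members, so their counts are not independent of each other. Slc7a11 was counted here and among amino acid transporters, and Abcc2 and Gstm1 were also counted in lists below. Nqo1, the quinone reductase often used to read NRF2 activity, was at -2.13, -2.38 and -2.75 in oil and 0.10, 0.11 and 0.07 in BDCM (2.51 ± 0.37, adjusted p = 0.00131). Gstm1, a mu-class glutathione transferase, was at 1.33, 1.67 and 1.03 in oil and 5.12, 5.49 and 4.33 in BDCM, a 12.4-fold rise (adjusted p = 0.000148). Gstp1, the pi-class transferase, rose from 6.16, 5.97 and 5.79 to 8.14, 8.07 and 8.15 (2.14 ± 0.13, adjusted p = 2.83e-05). The sulfiredoxin Srxn1, which reactivates peroxiredoxins, rose by 2.45 ± 0.35 (adjusted p = 0.000972). Neither subunit of glutamate-cysteine ligase, which begins glutathione synthesis, passed the test. The catalytic subunit Gclc was at 7.49, 7.50 and 7.21 in oil and 7.29, 5.91 and 6.08 in BDCM (-0.97 ± 0.32, adjusted p = 0.0605), and the groups overlapped through BDCM 1. Without BDCM 1 the Gclc difference passed (adjusted p = 0.00221), and it passed as well under quantile normalization (adjusted p = 0.0272). Gclm, the modifier subunit, differed by -0.59 ± 0.35 (adjusted p = 0.268), and the haem oxygenase Hmox1 by 1.12 ± 0.59 (adjusted p = 0.219, and 0.019 in a fit to the 6 arrays alone).

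The enzymes that act on BDCM and on its conjugates gave a mixed picture. Cyp2e1, the P450 that oxidises BDCM, was at 5.69, 6.004 and 5.64 in oil and 5.09, 5.45 and 4.41 in BDCM, so every treated animal was below every control, as was the case in one direction or the other for 41.7% of named genes. The difference of -0.79 ± 0.30 did not pass (adjusted p = 0.0972; 0.0327 with array weights). Gstt1, the theta-class transferase, was at 3.03, 3.28 and 2.88 in oil and 2.99, 2.39 and 2.35 in BDCM (-0.49 ± 0.21, adjusted p = 0.132; 0.0332 without BDCM 1). Of 38 measured glutathione transferases and mercapturate enzymes 5 rose and 9 fell, and the rises were all transferases, while the falls held transferases as well as enzymes that process the conjugates. Kyat1, a cysteine conjugate beta-lyase, was at 5.21, 4.99 and 5.22 in oil and 4.15, 3.64 and 3.71 in BDCM (-1.31 ± 0.23, adjusted p = 0.00392). The aminoacylase Acy1 fell by 1.15 on the log2 scale (adjusted p = 0.00184), and Acy3, which deacetylates mercapturates, by 0.88 (adjusted p = 0.00845, slide-blocked adjusted p = 0.143). With slide as a block 3 rose and 4 fell.

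Of 39 measured drug efflux pumps and organic ion transporters, counted as 1 list, 7 rose and 16 fell. Abcc2 (MRP2), the apical pump for glutathione and glucuronide conjugates, was at 1.70, 1.72 and 1.31 in oil and 5.66, 5.99 and 5.63 in BDCM, an 18.2-fold rise (95% interval 13.8 to 24.0, adjusted p = 7.31e-06). The basolateral pump Abcc3 rose by 1.73 ± 0.19 (adjusted p = 0.000231) and the apical pump Abcc4 by 1.34 ± 0.20 (adjusted p = 0.00159). Abcb1b, a P-glycoprotein, was at -0.19, -0.50 and -0.81 in oil and 2.95, 3.22 and 2.29 in BDCM (3.32 ± 0.37, adjusted p = 0.000251). Its relative Abcb1a rose by 1.53 ± 0.29 (adjusted p = 0.00541), and probes of such close relatives may share signal. Slc22a8 (OAT3), an uptake carrier of the basolateral membrane, was at 7.50, 7.59 and 7.61 in oil and 6.78, 6.93 and 6.69 in BDCM (-0.77 ± 0.17, adjusted p = 0.0113, slide-blocked adjusted p = 0.175). Slc22a6 (OAT1), of the same membrane, fell by 1.02 (adjusted p = 0.0195), with an adjusted p of 0.0699 without oil 3, 0.0653 without BDCM 2, 0.0597 without BDCM 3 and 0.109 with slide as a block. The fall count was 7 without oil 1, 9 without oil 2, 8 without oil 3, 6 without BDCM 2, 4 without BDCM 3 and 2 with slide as a block, whereas the rise count was 6 in each of these.

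Of 23 measured glucuronosyl and sulfotransferases and epoxide hydrolases 6 rose and 1 fell, against 2 and 1 with slide as a block. Ugt2b7, a glucuronosyltransferase, was at -0.06, -2.09 and -2.36 in oil and 5.11, 2.56 and 3.17 in BDCM (5.12 ± 1.06, adjusted p = 0.00855, slide-blocked adjusted p = 0.109). In each group animal 1 stood about 2 units above the next one. Ugt2b1 was not well above background in oil and was in all 3 BDCM animals, a rise of at least 1.73-fold (adjusted p = 0.000232). Microsomal epoxide hydrolase Ephx1 rose by 1.47 ± 0.32 (adjusted p = 0.011, slide-blocked adjusted p = 0.0624).

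**Figure D3:**
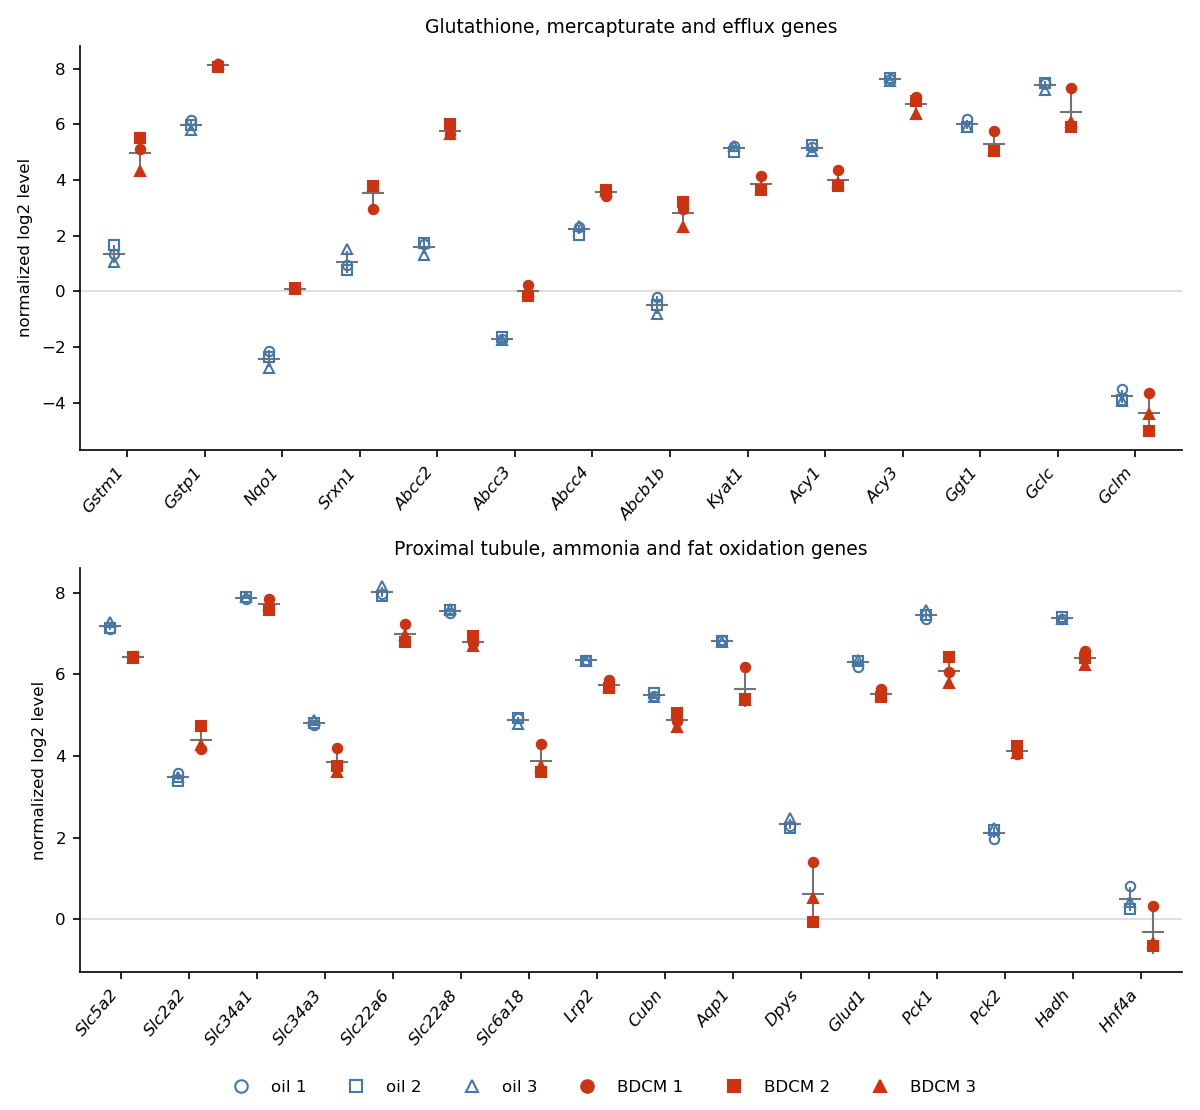
Normalized log2 levels in each animal of genes of glutathione use, mercapturate processing and efflux (top) and of proximal tubule transport, ammonia and glucose production and fat oxidation (bottom); symbols as labelled, grey bars mean and SD (n = 3). Abcc2 and Gstm1 lie far above the oil animals in all 3 treated animals, Slc5a2 lies below with little spread, and BDCM 1 sits within or next to the oil animals for Gclc and Hnf4a.

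Transcripts that define the proximal tubule were lower. Of 49 measured markers 27 fell, 1 rose and 21 did not pass, with a median of -0.59. In whole cortex RNA, fewer tubule cells and less RNA per cell cannot be told apart. Slc5a2 (SGLT2), the glucose carrier of the early proximal tubule, was at 7.12, 7.14 and 7.29 in oil and 6.46, 6.43 and 6.39 in BDCM (-0.76 ± 0.10, adjusted p = 0.000623). Slc2a2 (GLUT2), the basolateral glucose carrier of the same cells, was the member that rose, from 3.58, 3.40 and 3.50 to 4.18, 4.75 and 4.28 (0.91 ± 0.13, adjusted p = 0.00124). The endocytic receptors Lrp2 (megalin) and Cubn (cubilin) fell by 0.60 (adjusted p = 0.0114, slide-blocked adjusted p = 0.0917) and by 0.61 (adjusted p = 0.00757, slide-blocked adjusted p = 0.17). Dpys, a pyrimidine-degrading enzyme, was at 2.28, 2.24 and 2.47 in oil and 1.40, -0.07 and 0.53 in BDCM (-1.71 ± 0.35, adjusted p = 0.00764). The main phosphate carrier Slc34a1 was nearly level, with a difference of -0.17 ± 0.09 (adjusted p = 0.234; 0.0378 with the mean over its probes). Hnf4a, a transcription factor of the mature tubule, was at 0.81, 0.24 and 0.42 in oil and 0.32, -0.66 and -0.58 in BDCM (-0.80 ± 0.27, adjusted p = 0.0609; 0.00709 without BDCM 1). The list's median change was -0.33 in BDCM 1, -0.67 in BDCM 2 and -0.72 in BDCM 3. Falls numbered 16 without oil 3, 17 without BDCM 2, 15 without BDCM 3 and 5 with slide as a block. The summed signal of the 6 defining tubule markers was 611 to 632 in oil and 481, 403 and 415 in BDCM. That of the thick limb and distal nephron markers was 563 to 585 in oil and 590, 542 and 496 in BDCM. The latter sum is dominated by its brightest marker, Umod, at 8.76, 8.84 and 8.84 in oil and 8.84, 8.71 and 8.64 in BDCM, so it says little of the other markers.

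Glucose and ammonia production belong to the same cells, and 13 of 23 measured genes fell while 2 rose. The 2 forms of phosphoenolpyruvate carboxykinase parted. Mitochondrial Pck2 was at 1.96, 2.18 and 2.23 in oil and 4.05, 4.26 and 4.07 in BDCM (2.00 ± 0.14, adjusted p = 7.63e-05). Cytosolic Pck1, the rate-limiting enzyme of renal gluconeogenesis, was at 7.36, 7.45 and 7.58 in oil and 6.07, 6.44 and 5.78 in BDCM (-1.37 ± 0.35, adjusted p = 0.0208). The Pck1 call was lost without oil 2 (adjusted p = 0.0562), without oil 3 (0.069), without BDCM 3 (0.0764) and with slide as a block (0.212). Glud1, glutamate dehydrogenase, fell by 0.77 on the log2 scale (adjusted p = 0.00116). The list's falls numbered 7 without oil 2, 7 without oil 3 and 3 with slide as a block. Glycolytic enzymes gave 2 rises and 3 falls among 24 (20.8%), a share near the 19.6% over all named genes. Their counts were 0 and 1 without oil 1, oil 3, BDCM 2 or BDCM 3, and 0 and 0 without oil 2, with slide as a block or with a replicate block.

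Among 47 measured genes of fatty acid oxidation and PPAR alpha targets 18 fell and 2 rose, with a median of -0.26. Hadh, a beta-oxidation dehydrogenase, was at 7.35, 7.41 and 7.35 in oil and 6.58, 6.41 and 6.23 in BDCM (-0.96 ± 0.17, adjusted p = 0.00423, slide-blocked adjusted p = 0.0564), and the thiolase Acaa2 fell by 0.91 (adjusted p = 0.00596). Cidea, a lipid droplet protein, rose by 1.87 ± 0.32 (adjusted p = 0.00297). The rate-limiting carnitine transferase Cpt1a differed by 0.08 ± 0.33 (adjusted p = 0.899) and the receptor Ppara by -0.16 ± 0.32 (adjusted p = 0.774). Falls numbered 11 without oil 1, 10 without oil 2, 7 without BDCM 3 and 2 with slide as a block.

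The respiratory chain list had 2 rises and 6 falls among 50 measured genes (16%), below the 19.6% over all named genes. Of its members 1 was the largest rise of all 12 leading genes. Cox6a2 encodes the version of a cytochrome oxidase subunit that heart and skeletal muscle use. It was at -3.78, -3.59 and -3.31 in oil and 1.64, 3.70 and 3.78 in BDCM, an effect of 6.60 ± 0.64 (adjusted p = 0.000153) or 97.1-fold (95% interval 36.4 to 259). Its 3 probes gave rises from 2.07 to 6.60. The form found in most tissues, Cox6a1, was at 8.46, 8.49 and 8.49 in oil and 8.47, 8.45 and 8.40 in BDCM (-0.04 ± 0.06, adjusted p = 0.706). Skeletal muscle markers were dim in both groups, with a summed signal of 0.067 to 0.073 in oil and 0.065, 0.071 and 0.095 in BDCM, and 1 of the 3 was above background on no array. The count of falls in this list depended on scaling, with 26 under quantile normalization and 12 after normexp background correction. It was 2 without oil 1, oil 3 or BDCM 3, 3 without oil 2 or BDCM 2 and 0 with slide as a block.

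Markers of tubule injury rose in part. Of 28 measured members 8 rose and 1 fell (32.1%, against 19.6% over all named genes), with a median of 0.25. Havcr1, which encodes the injury marker KIM-1, was at -4.47, -3.63 and -4.98 in oil and -0.63, 1.04 and 1.20 in BDCM, a 29.8-fold rise (adjusted p = 0.0012). Spp1, the secreted matrix protein osteopontin, was at 3.18, 3.22 and 2.73 in oil and 5.20, 6.80 and 7.23 in BDCM (3.37 ± 0.51, adjusted p = 0.00147). Gpnmb, a transmembrane protein of lysosomes and phagocytes, was at -2.03, -2.93 and -1.92 in oil and 1.33, 2.55 and 1.82 in BDCM (4.19 ± 0.45, adjusted p = 0.000224). BDCM 1 was the lowest treated animal for all 3 genes. Lcn2, which encodes the injury marker NGAL, was at -1.60, -1.63 and -1.51 in oil and -1.55, -1.76 and -0.13 in BDCM, so only BDCM 3 stood apart (0.43 ± 0.46, adjusted p = 0.551). The dedifferentiation marker Vim differed by -0.15 ± 0.11 (adjusted p = 0.38), and the keratin Krt7 fell by 1.06 (adjusted p = 0.000972). Rises numbered 3 without oil 1, 3 without oil 3, 3 without BDCM 2, 4 without BDCM 3 and 5 with slide as a block. Summed leukocyte markers were 3.57 to 3.89 in oil and 3.04, 3.52 and 4.66 in BDCM. Of 35 measured leukocyte genes 1 rose and 0 fell (2.86%).

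Cell cycle genes differed from one treated animal to the next. Of 52 measured genes 18 rose and 1 fell, with a median of 0.74, and the median change was 0.21 in BDCM 1, 0.66 in BDCM 2 and 1.36 in BDCM 3. The called genes included DNA replication licensing factors. Mcm3, a helicase subunit, was at -0.56, -0.57 and -0.63 in oil and 0.31, 0.83 and 1.44 in BDCM (1.45 ± 0.26, adjusted p = 0.00399, slide-blocked adjusted p = 0.0634). Cdt1, which loads that helicase, rose by 1.40 ± 0.26 (adjusted p = 0.00497, slide-blocked adjusted p = 0.111), and the replisome subunit Gins1 by 1.30 ± 0.27 (adjusted p = 0.00891, slide-blocked adjusted p = 0.118). Cdk1, the kinase that drives entry into mitosis, was at 1.24, 1.64 and 0.64 in oil and 1.23, 2.04 and 2.95 in BDCM (0.90 ± 0.45, adjusted p = 0.188). The mitotic cyclin Ccnb1 differed by 0.92 ± 0.44 (adjusted p = 0.17). Rises numbered 27 without BDCM 1, 12 without oil 3, 12 without BDCM 3, 16 without oil 1, 15 without oil 2 and 16 without BDCM 2. With slide as a block 1 of the 52 genes rose and 0 fell.

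Myc, a transcription factor that promotes growth and ribosome production, was at -0.72, -0.25 and -0.42 in oil and 1.31, 2.02 and 2.26 in BDCM (2.33 ± 0.42, adjusted p = 0.00435, slide-blocked adjusted p = 0.0727). The immediate early gene list, which holds Myc, gave 8 rises and 4 falls among 34 measured members. Fosl1, a subunit of AP-1, was not well above background in oil and was at -5.02, -1.74 and -2.07 in BDCM, a rise of at least 10.8-fold (adjusted p = 0.0141). That call was lost without oil 1 (adjusted p = 0.0516), BDCM 2 (0.052) or BDCM 3 (0.0547) and with slide as a block (0.0592). Fos itself differed by 0.76 ± 0.24 (adjusted p = 0.0519) and passed in 6 alternatives, while Egr1 differed by 0.30 ± 0.33 (adjusted p = 0.569; 0.0247 without oil 2). The list's rises numbered 4 without oil 1, 4 without BDCM 2, 4 without BDCM 3 and 5 with slide as a block. Its falls numbered 5 without oil 1, 4 without any other 1 array and 2 with slide as a block. At an adjusted p under 0.01 the list had 3 rises and 4 falls, and at a change of at least 2-fold 4 rises and 1 fall.

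Targets of p53 gave 7 rises and 3 falls among 27 measured genes (37%, against 19.6% over all named genes). None passed in either direction with slide as a block. The secreted stress factor Gdf15 was at 0.27, 0.46 and 0.11 in oil and 1.90, 1.81 and 2.12 in BDCM (1.66 ± 0.37, adjusted p = 0.0123, slide-blocked adjusted p = 0.141). Cdkn1a, which encodes the p53 target p21, differed by -0.04 ± 0.14 (adjusted p = 0.869) on its brightest probe, and by up to 2.28 on another. Mdm2, the ubiquitin ligase that degrades p53, differed by 0.19 ± 0.12 (adjusted p = 0.321). In the Bcl2 family 6 of 28 measured genes rose and 2 fell (28.6%), and 3 rose with slide as a block. Hrk, which encodes a BH3-only promoter of apoptosis, was not well above background in oil at -6.61, -6.68 and -7.94 and reached -1.40, -1.63 and -1.53 in BDCM. Its rise was at least 29.5-fold (adjusted p = 0.000124), though its probes gave effects from 0.21 to 5.56. Bbc3, which encodes the BH3-only protein PUMA, rose by 1.18 ± 0.22 (adjusted p = 0.00472, slide-blocked adjusted p = 0.062).

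**Figure D4:**
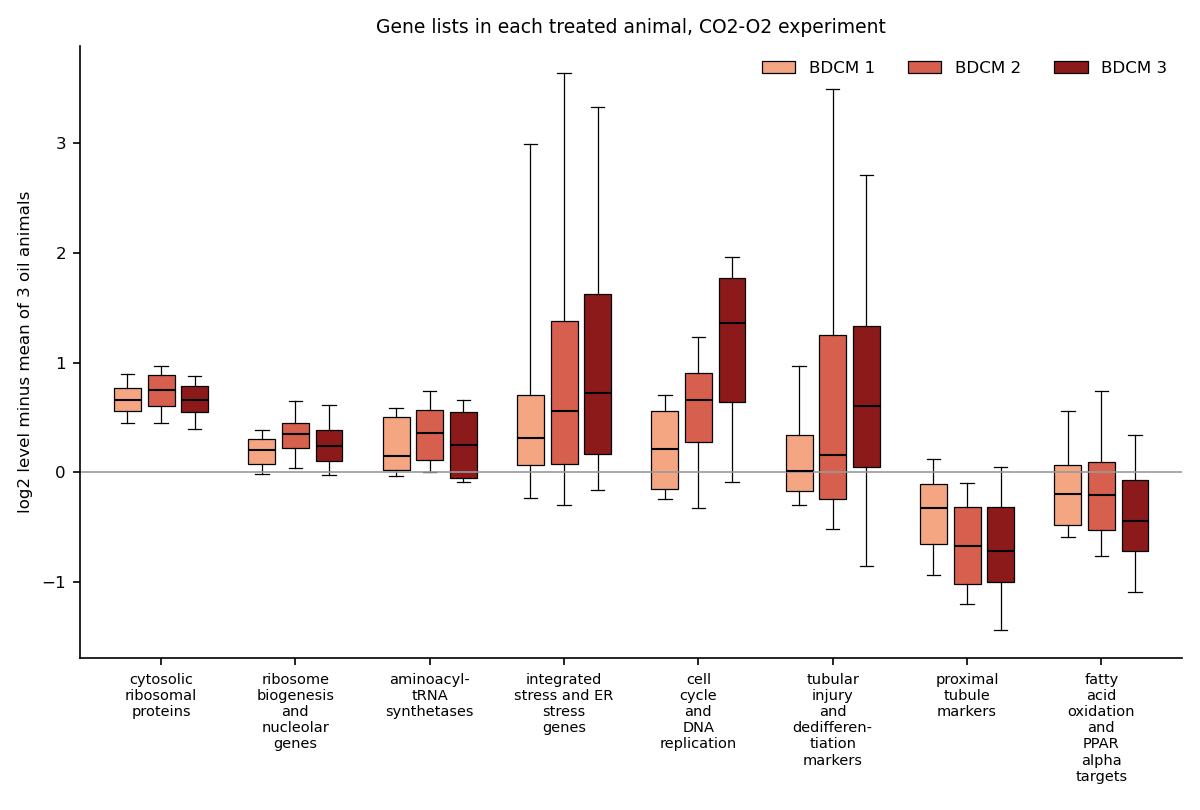
Change of each measured member of 8 gene lists from the mean of the 3 oil animals, for each BDCM animal; boxes show the quartiles, centre lines the median and whiskers the 10th and 90th percentiles over genes, which are not replicates. Ribosomal proteins have nearly equal medians of 0.66, 0.75 and 0.66, whereas cell cycle genes go from 0.21 in BDCM 1 to 1.36 in BDCM 3.

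The treated animals differed in how far they moved. Among the 258 named genes that rose at least 2-fold, BDCM 1 had the smallest change for 196, BDCM 2 for 24 and BDCM 3 for 38. The median change over these genes was 1.13 in BDCM 1, 1.70 in BDCM 2 and 1.72 in BDCM 3. Among the 233 that fell at least 2-fold, BDCM 1 had the smallest change for 159, and the medians were -1.01, -1.43 and -1.58. BDCM 1 shared slide 2 with BDCM 3, so the difference between these animals was present within 1 slide. Genes chosen for a wide spread among the treated animals included Sdcbp2, which encodes an adaptor with PDZ domains. It was at -4.27, -5.14 and -4.43 in oil and -2.40, 0.22 and -0.39 in BDCM (3.76 ± 0.77, adjusted p = 0.00798). Not every rise was smallest in BDCM 1, since Asns, Abcc2 and Nqo1 were nearly equal in the 3 animals, with BDCM 3 the lowest by a small margin.

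Further leading rises fell in no single list. Nnmt, which methylates nicotinamide, was at -4.38, -4.57 and -4.32 in oil and -0.53, 0.63 and 0.47 in BDCM (4.62 ± 0.44, adjusted p = 0.000148). Bhlha15 (MIST1), a transcription factor of secretory cells, was at -3.73, -4.47 and -4.39 in oil and -1.21, 0.65 and 0.42 in BDCM (4.15 ± 0.77, adjusted p = 0.00493, slide-blocked adjusted p = 0.0557). Stra6l, a relative of the retinol-binding protein receptor, was at -3.55, -4.79 and -4.80 in oil and -0.57, -0.24 and -0.29 in BDCM (4.01 ± 0.51, adjusted p = 0.00054). Ceacam16, known from the inner ear, was at -5.55, -5.42 and -4.36 in oil and -1.81, 0.16 and -1.81 in BDCM (3.96 ± 0.53, adjusted p = 0.000732). Fut1, a fucosyltransferase that makes the H antigen, was not well above background in oil and rose at least 23.7-fold (adjusted p = 0.000164). The cholesterol absorption protein Npc1l1 likewise rose at least 6.24-fold (adjusted p = 0.000242). It belongs to the list of cholesterol synthesis and sterol control, in which 10 of 32 measured members rose and 0 fell with a median of 0.16. Insig1, which restrains sterol synthesis, rose by 0.58 ± 0.10 (adjusted p = 0.00248). Rises in that list numbered 6 without oil 1, 6 without oil 2, 5 without oil 3, 4 without BDCM 2 and 3 with slide as a block.

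The largest fall was that of Cyp2c11, the male-specific P450 that growth hormone controls in rat liver. This gene was counted in the P450, growth hormone and hepatocyte lists. It was at 1.71, 0.76 and 2.31 in oil and -2.71, -4.05 and -3.75 in BDCM, 34.1-fold lower (-5.09 ± 0.78, adjusted p = 0.00165). Mup4l4, a major urinary protein, was at 0.07, 0.62 and -1.72 in oil and -3.98, -4.36 and -3.31 in BDCM (-3.54 ± 0.68, adjusted p = 0.00585). Mup4 was well above background in all 3 oil animals and in no BDCM animal, a fall of at least 6.08-fold (adjusted p = 0.00198). These are near-identical genes, so their probes may read the same transcripts. Hepatocytes are the best known source of all 3. Alb, which encodes albumin, was at 0.79, 1.66 and -1.44 in oil and 0.60, 1.19 and 1.49 in BDCM (0.76 ± 1.63, adjusted p = 0.786). The summed hepatocyte markers, given above, overlapped between the groups. Of 40 measured hepatocyte genes 9 fell and 2 rose (27.5%, against 19.6% over all named genes), with a median of 0.33. Their part in these falls was not tested. Without oil 3 that list had 0 rises and 9 falls, and its median turned to -0.13. It had 6 rises and 5 falls without oil 2, 0 and 5 without oil 1 or without BDCM 3, and 0 and 6 without BDCM 2.

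The other leading falls had more varied roles. Guca2b, which encodes the natriuretic peptide uroguanylin, was at 1.58, 0.72 and 1.08 in oil and -1.91, -1.58 and -1.46 in BDCM (-2.78 ± 0.22, adjusted p = 0.000146). Rgn, a calcium-binding lactonase, was at 4.61, 4.36 and 4.40 in oil and 3.34, 1.46 and 1.90 in BDCM (-2.22 ± 0.39, adjusted p = 0.00382). Cndp1, which splits carnosine, was at 3.55, 3.55 and 2.61 in oil and 1.55, 0.57 and -0.24 in BDCM (-2.61 ± 0.43, adjusted p = 0.00245, slide-blocked adjusted p = 0.0505). Anxa13, an annexin of epithelial membranes, was at 0.51, 0.02 and -0.46 in oil and -1.28, -3.18 and -3.13 in BDCM (-2.55 ± 0.48, adjusted p = 0.00532). Btg1b, related to the antiproliferative gene Btg1, was at -1.97, -1.29 and -1.26 in oil and -3.12, -5.40 and -4.72 in BDCM (-2.91 ± 0.63, adjusted p = 0.011). In Anxa13 and Btg1b, as in Rgn and Cndp1, BDCM 1 was the treated animal nearest to the oil animals. Iqch, named for its IQ motif, was at -1.45, -1.39 and -1.02 in oil and -2.30, -5.63 and -4.63 in BDCM (-2.90 ± 0.65, adjusted p = 0.0123; 0.0614 in a fit to the 6 arrays alone).

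The calls of 4 more leading falls were lost when single arrays were left out. Aldh1b1, a mitochondrial aldehyde dehydrogenase, was at 1.07, 0.29 and 0.26 in oil and -1.48, -1.30 and -4.30 in BDCM (-2.90 ± 0.90, adjusted p = 0.0463). Its adjusted p was 0.128 without oil 1, 0.0912 without oil 2, 0.0961 without oil 3, 0.142 without BDCM 3 and 0.282 with slide as a block, and a second probe gave -0.72. Hrg, a histidine-rich plasma glycoprotein, fell by 2.55 on the log2 scale (adjusted p = 0.0219), with 0.0767 without oil 1, 0.0522 without oil 2, 0.0806 without BDCM 3 and 0.302 with slide as a block. Tm4sf20, a membrane protein that spans the bilayer several times, fell by 2.26 (adjusted p = 0.0253), and BDCM 1 at -0.41 lay just below the lowest oil animal at -0.22. Its call was lost without any one of oil 1, 2 or 3 and BDCM 2 or 3, with adjusted p from 0.0564 to 0.091. Cilp, a secreted matrix protein, fell by 2.25 (adjusted p = 0.0162), with 0.0532 without oil 1, 0.0619 without oil 3, 0.0608 without BDCM 3 and 0.0566 with slide as a block. Among genes well above background in oil alone, Dnajc5b, a co-chaperone of the J-domain family, fell at least 5.98-fold (adjusted p = 0.00115) and the oocyte factor Nobox at least 3.63-fold (adjusted p = 0.000897). The cold channel Trpm8 fell at least 2.88-fold (adjusted p = 0.0024; 0.0525 with slide as a block and 0.0872 after normexp). Paep, a lipocalin, fell at least 2.92-fold (adjusted p = 0.0322), with 0.0996 without oil 1, 0.108 without oil 3, 0.103 without BDCM 2, 0.0603 without BDCM 3, 0.111 with slide as a block and 0.0567 with no filter on dim probes. These 4 genes were picked for being above background in oil alone, which favours a fall.

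Hormone-related lists held more falls than rises. The shares called were 39.3% in the growth hormone list, 33.3% in the vitamin D list and 24% in the renin-angiotensin list. Over all named genes the share was 19.6%, near that of the renin-angiotensin list. Of 28 measured growth hormone, prolactin receptor, androgen and IGF genes 10 fell and 1 rose. The rise was Igfbp1, a secreted IGF-binding protein (1.85 ± 0.34, adjusted p = 0.00464), while its relative Igfbp4 fell by 1.69 (adjusted p = 0.00879, slide-blocked adjusted p = 0.137). Of 24 measured vitamin D, calcium and phosphate genes 8 fell and 0 rose. Pth1r, the parathyroid hormone receptor, was at 4.38, 4.47 and 4.65 in oil and 3.49, 3.40 and 3.36 in BDCM (-1.08 ± 0.15, adjusted p = 0.00104), and the calcium-binding protein gene S100g fell by 1.56 (adjusted p = 0.00706, slide-blocked adjusted p = 0.106). Of 25 measured renin-angiotensin and vasoactive genes 6 fell and 0 rose, Guca2b being the first of these by adjusted p. Angiotensinogen, Agt, was at 3.09, 3.18 and 2.86 in oil and 2.55, 1.31 and 1.12 in BDCM (-1.38 ± 0.35, adjusted p = 0.0201), with 0.0576 without oil 1, 0.0638 without oil 2, 0.0689 without BDCM 2, 0.0747 without BDCM 3 and 0.0889 with slide as a block. The falls in the growth hormone list numbered 5 without oil 1, 6 without oil 2, 6 without BDCM 2, 5 without BDCM 3 and 4 with slide as a block. Those in the vitamin D list numbered 5 without oil 1, 4 without oil 2, 4 without oil 3, 5 without BDCM 2, 4 without BDCM 3 and 4 with slide as a block. Those in the renin-angiotensin list numbered 3 without oil 1, 3 without oil 2, 2 without BDCM 2, 3 without BDCM 3 and 1 with slide as a block.

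Lists for other nephron segments, the glomerulus and the lysosome each held more falls than rises. The shares called were 16.7%, 30% and 38.3% in turn. Over all named genes the share was 19.6%, above that of the nephron segment list. Among 36 measured markers of the thick limb, distal nephron and collecting duct 6 fell and 0 rose, and 3 fell without oil 2. Slc26a4 (pendrin), the chloride and bicarbonate exchanger of intercalated cells, fell by 1.02 (adjusted p = 0.00585). Of 20 measured podocyte and glomerular genes 5 fell and 1 rose, and none passed with slide as a block. Col4a4, a basement membrane collagen made by podocytes, was at 2.08, 2.61 and 2.65 in oil and 1.08, 0.98 and 0.67 in BDCM (-1.53 ± 0.26, adjusted p = 0.0032, slide-blocked adjusted p = 0.0833). The podocyte list's falls numbered 2 without oil 2, 1 without oil 3 and 1 without BDCM 3. Lysosome and vacuolar ATPase genes gave 14 falls and 4 rises among 47. The cysteine protease Ctsl rose by 0.58 ± 0.11 (adjusted p = 0.00492), and Gpnmb, described above, was also on this list. The lysosomal falls numbered 9 under median scaling, 1 with slide as a block and 6, 7, 5, 7 and 5 without oil 1, oil 2, oil 3, BDCM 2 and BDCM 3.

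Of 39 measured cytokine, chemokine and NF-kB genes 6 rose and 1 fell (17.9%), and of 40 interferon-induced and antigen presentation genes 2 rose and 1 fell (7.5%), against 19.6% over all named genes, a share near that of the cytokine list. Bcl3, a nuclear regulator of NF-kB, was at 0.83, 0.72 and 0.64 in oil and 2.39, 2.75 and 3.03 in BDCM (2.00 ± 0.24, adjusted p = 0.000403), and the receptor gene Tnfrsf12a rose by 1.88 ± 0.33 (adjusted p = 0.00355). Irf1, an interferon-regulated transcription factor, rose by 1.08 ± 0.21 (adjusted p = 0.00587). Without BDCM 1 the interferon list had 7 rises and 1 fall. Extracellular matrix genes gave 2 rises and 2 falls among 33, endothelial, mural and smooth muscle markers 1 and 2 among 24, heat shock genes 1 and 3 among 30 and clock genes 1 and 1 among 18. The matrix list had 0 rises and 1 fall without oil 1, oil 2 or BDCM 2 and 0 of each without oil 3 or BDCM 3. The endothelial list had 1 fall without oil 1, 2 or 3 or BDCM 3, the heat shock list had 4 rises without BDCM 2, and the clock list had 0 rises without oil 1, oil 3, BDCM 2 or BDCM 3. The proteasome list gave 5 rises and 0 falls among 38, with none left without oil 2, oil 3 or BDCM 3 or with slide as a block, and 1, 3 and 2 without oil 1, BDCM 1 and BDCM 2. Glucocorticoid-responsive genes and metallothioneins gave 6 falls and 0 rises among 25, with counts of 1 without oil 2, 1 without oil 3, 2 without BDCM 3 and 0 with slide as a block. P450 genes gave 7 falls and 2 rises among 39, and 2 or 3 falls without any 1 of oil 1, 2 or 3, BDCM 2 or BDCM 3. Besides Cyp2c11, the bile acid hydroxylase gene Cyp8b1 fell (adjusted p = 0.00315), but it was well above background on only 1 of the 3 BDCM arrays, so no size is given. Adrenal, fat and muscle transcripts gave 1 fall among 14.

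In the isoflurane experiment 3330 of the same 12207 named genes passed for BDCM (27.3%), and 1873 passed in both experiments with the same sign, 78.4% of the CO2-O2 calls and 56.2% of the isoflurane calls. The controls of the experiments were separate animals, but no slide held arrays of both, so the anaesthetic, the experiment and the slides cannot be told apart. Effects under isoflurane were 6.93 for Cox6a2, 6.53 for Pycr1, 4.15 for Asns, 4.88 for Abcc2, 4.47 for Havcr1 and -4.27 for Cyp2c11. The ribosomal protein list had 75 rises among 75 there with a median of 0.88, and the proximal tubule list 33 falls and 1 rise among 49 with a median of -0.64. A test of the difference between the effects called 0 of 34217 features (limma interaction contrast), while 1732 had an unadjusted p under 0.05 (5.06%). Psd2 and Ifi47 were the 2 named genes called in both with opposite signs, 0.0838% of the CO2-O2 calls, at 0.57 and 0.50 under CO2-O2 against -0.60 and -0.58 under isoflurane. Both CO2-O2 calls were lost without oil 1 (adjusted p = 0.119 for Psd2 and 0.0938 for Ifi47), without oil 3 (0.13 and 0.0924), without BDCM 2 (0.0598 and 0.0759), without BDCM 3 (0.0939 and 0.113) and with slide as a block (0.198 and 0.233), that of Psd2 also without BDCM 1 (0.103) and that of Ifi47 also without oil 2 (0.103).

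Mup4l4 differed by -3.54 under CO2-O2 and 0.22 under isoflurane (difference -3.76 ± 0.96, adjusted p = 0.935), and it was well above background on only 1 of the 3 oil arrays of the isoflurane experiment. Mup4 and Ugt2b1 were well above background on 0 of the 6 isoflurane arrays, so no effect is given for them there. Summed hepatocyte markers of the isoflurane animals were 0.448, 0.531 and 0.657 in oil and 1.60, 0.524 and 0.347 in BDCM, below those of the CO2-O2 animals except that BDCM 1 under isoflurane exceeded oil 3 under CO2-O2.

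**Figure D5:**
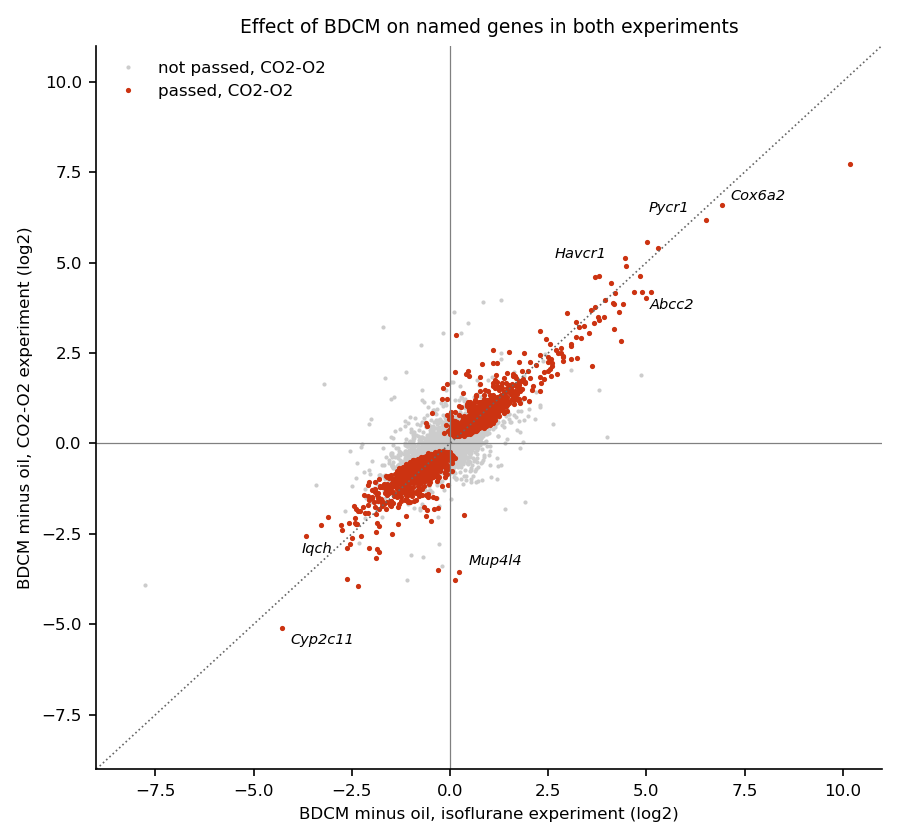
Effect of BDCM on each of the 12207 named genes in the CO2-O2 experiment (vertical, log2) against the isoflurane experiment (horizontal, log2), each from its own 3 BDCM and 3 oil animals; red points passed in the CO2-O2 experiment and the dotted line marks equal effects. Genes dim in a group are drawn at their measured signal; Cox6a2, Pycr1, Havcr1 and Abcc2 lie near the line, whereas Mup4l4 lies near 0 on the isoflurane axis.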

How the data were processed

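Renal cortex RNA of 12 rats, 3 in each of 4 groups, was read on 1 one-colour array per animal; the 6 CO2-O2 arrays are reported. Per the file headers, the authors' scanner files hold processed intensity values from which Agilent Feature Extraction 10.7.1.1 had subtracted the background, with probes annotated on rn4. Version 10.7 of the program is also named in the submitters' notes. The value table the authors deposited holds linear ratios, each signal over its array's 75th percentile, and served as an alternative in log2. Of its 12 columns 6 equalled their own array and the 6 CO2-O2 columns equalled another array of the same group, so animal numbers come from the scanner files.

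Control spots (1319), 84 spike-in probes and outlier spots (35 on the 6 arrays) were left out, and log2 intensity was centred on each array's 75th percentile. Of 61657 probes 27460 matched 1 RefSeq symbol, for 15284 genes. The brightest probe stood for a gene, and 34113 probes without a symbol were tested on their own. Of 49397 features 34217 entered the fit, those for which every array of some group was well above background. Intensities are not counts, and the number of arrays limits the precision.

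Means of the 4 groups were estimated from all 12 arrays in R 4.3.3 by lmFit and eBayes of limma 3.58.1, with Benjamini-Hochberg adjustment over all features and a threshold of 0.05. The residual degrees of freedom were 8. The steps were tested on simulated data. Alternatives were quantile and median scaling, normexp with offset 50, the value table, other filters and probe rules, other models and blocks, stricter thresholds and each array left out. Promoters were searched with Python 3.11.15.

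Genes were named by a rule: the 12 largest rises and 12 largest falls among genes called with no overlap and above background on all 6 arrays, the 5 largest bounds each way, the 6 widest treated ranges, leading called members of 39 gene lists and 10 fixed genes, with any list member whose role is described. The experiment and the lists were chosen with earlier results of these data known. Some genes that the rule would name are not reported here.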

Additional observations from a re-analysis of the deposited data

How the results depend on the processing

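The count of 6810 features called for BDCM kept within 1.5 times of that value under quantile normalization (6949), median scaling (6383), normexp (6736), the deposited value table (6797), no filter on dim probes (4959), a filter on the CO2-O2 groups (6851), the mean over probes (6747), a fit to the 6 arrays alone (5706), an intensity trend (7238), array weights (8031) and slide as a random block (6524). It was 3167 with slide as a fixed block, 2850 at an adjusted p under 0.01, of which 65.5% were higher, and 1271 at a change of at least 2-fold. Leaving out 1 array gave 3901 to 7083, with 4389 without oil 2, 3901 without oil 3 and 4200 without BDCM 3 beyond 1.5 times. The slide-blocked fit rests on 1 treated animal on slide 1, and 2484 of its calls were also called without the block. The 0 features called for the difference between experiments became 11 with slide as a fixed block, and 0 to 1 with 1 array left out, the 1 arising without oil 3 and without BDCM 1. With a replicate block 4711 features were called. The deviations of oil and BDCM arrays with the same number correlated at 0.054, 0.051 and -0.006. Those with different numbers correlated at -0.085 to 0.037. Correlations this weak, from 3 arrays in each group, cannot settle whether the numbers pair the animals. Over the genes named in the report, 2586 gene and setting pairs kept their side of the threshold. A further 142 lost the call, 34 of them with slide as a fixed block, and 23 gained it. None turned direction where the main or the alternative fit made a call, and turns without a call were not counted. The 3 arrays in each group and a shared spread limit the sizes of change that could be called, and dim genes have bounds only.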
